A study of Danio rerio with 6 samples.

Results

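The cytochrome P450 genes of regenerating larval zebrafish tail fins were taken as every gene of the count table whose symbol starts with *cyp* and a family number, whatever its case. Symbols starting with *cyp1a*, *cyp1b*, *cyp1c*, *cyp1d*, *cyp26* or *cyp51* were left out. This gave 77 of 32057 gene IDs. The libraries came from wild-type larvae whose tail fins were amputated at 3 dpf and collected 24 h later (24 hpa), 50 regenerated fins to a library. Larvae of the rapamycin group (replicates 4 to 6, n = 3) were kept from 2 dpf in 1 µM rapamycin, a drug that blocks mTOR complex 1, and those of the control group (replicates 1 to 3, n = 3) in the solvent DMSO. The whole larva was exposed while only the fin was sequenced, by SMART-seq, which amplifies full-length cDNA.

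P450s are heme enzymes that insert an oxygen atom from molecular oxygen into a substrate. Those in the endoplasmic reticulum are fed electrons by the P450 oxidoreductase POR, and those in mitochondria by ferredoxin and ferredoxin reductase. Families CYP2, CYP3 and CYP4 are known chiefly for drugs, other foreign compounds and fatty acids, and CYP2 has many members in fish that lie side by side on a chromosome. The other families mostly have fixed substrates, namely cholesterol and oxysterols on the way to bile acids, vitamin D, and the steroid hormones. Many P450s are best known from liver, gut, brain or the steroid-making glands. The family is less often described in a fin.

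Totals lay between 49055607 and 54162044 counts per library. Control replicate 1 stood apart from the other controls. A principal component analysis of all tested genes (first component, 54.3% of the variance) put it at 2.24, with control replicates 2 and 3 at -58.4 and -64.5, and the rapamycin libraries at 37.3 to 42.5. Results are therefore also given without it. The label names the tissue only as larval fin. Marker lists of epidermis and fin mesenchyme, of 8 and 7 genes, summed to 40581 to 58527 and 46376 to 107414 CPM per library, where CPM is the count scaled by TMM to a library of fixed size. Of 8 liver markers 3 passed the count filter and none was called with all libraries. The 8 summed to 17.3 to 27.9 CPM in control and 13.6 to 14.8 CPM in rapamycin fins. The liver-defining *fabp10a* had at most 0.152 CPM in any library. Of 3 interrenal markers *star*, which brings cholesterol to the first steroid-making P450, had no count, *hsd3b1* had 0.663 to 1.95 CPM in the 6 libraries, and *mc2r* had counts in rapamycin replicates 4 and 5 only. Markers of other cells were called too. The macrophage genes *c1qa* and *c1qb*, the erythrocyte globin *hbae1.1* and the pigment cell gene *gch2* were lower in rapamycin fins. *mmp13a* of the neutrophil list and the epidermal cadherin *cdh1* were higher (edgeR adjusted p of all these genes 0.0101 to 0.0439). With a library left out their largest adjusted p was 0.0731 to 0.188. *c1qa*, with at most 0.0737 CPM in a rapamycin library, could pass the count filter only through the control libraries. Uncalled members of the same lists had log2 fold changes (rapamycin minus control) of the other sign. These were *csf1ra* (0.76) and *marco* (0.20) of macrophages, *pmela* (0.44) and *dct* (0.40) of pigment cells and *lyz* (-0.44) of neutrophils. The pigment gene *pnp4a* (-0.35) and the erythrocyte gene *alas2* (-2.10) had the same sign, uncalled. The fold changes of all 8 epidermis markers were above 0, 1 of them called. Without control replicate 1, edgeR also called *krt8* of epidermis, *col1a2* of mesenchyme and *csf1ra* of macrophages higher (15.5% of all genes). It then also called *msx3* and *hoxa13b* of mesenchyme, *foxi3a* of ionocytes and the liver marker *hpda* lower (15.6% of all genes). The part of these cells in the P450 results was not tested. In such bulk samples, fewer cells of a type and less RNA per cell cannot be told apart.

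Reads fell on 61 of the 77 P450 genes, and 16 had no count in any library. A count of 0 allows up to 3 counts, which is 0.0489 to 0.0679 CPM in a single library (counting error only). In all 6 libraries 40 genes had a count, and the other 21 in 1 to 5. The number with a count was 53, 51 and 50 in the control libraries and 45, 52 and 49 in the rapamycin libraries. The count filter passed 45 genes, leaving 16 that had counts but were not tested. A gene can pass this filter through only the group where it is high, so counts over the 45 describe genes read well enough in at least 1 group.

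A few genes took most of the reads. The 6 with the most reads held 71.6% to 76.9% of all P450 reads per library. These are shares of reads, not of transcripts, because a longer transcript gives more reads and transcript lengths were not used here. *cyp3c1*, of the fish CYP3C subfamily, took 23.4% to 28.6%. *cyp20a1*, an orphan P450 with no settled substrate, took 9.54% to 20.8%. The others were *cyp2v1* (8.03% to 13.1%), *cyp2y3* (7.27% to 11.5%), *cyp27a1.1* (6.87% to 10.8%) and *cyp2k16* (3.10% to 5.82%). Of these 6, *cyp27a1.1* belongs to the subfamily of the mitochondrial sterol side-chain hydroxylase, and *cyp2v1*, *cyp2y3* and *cyp2k16* belong to fish subfamilies of CYP2.

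The summed level of all 77 P450 genes was 747, 895 and 952 CPM in control replicates 1 to 3 and 700, 716 and 737 CPM in rapamycin replicates 4 to 6. Means were 865 ± 106 and 718 ± 18.6 CPM (SD, n = 3), a ratio of 0.830. Every rapamycin library lay below every control library, with control replicate 1 only slightly above the highest of them. Without *cyp20a1* the groups overlapped, at 653 to 754 CPM in control and 617 to 667 CPM in rapamycin fins.

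**Figure D1:**
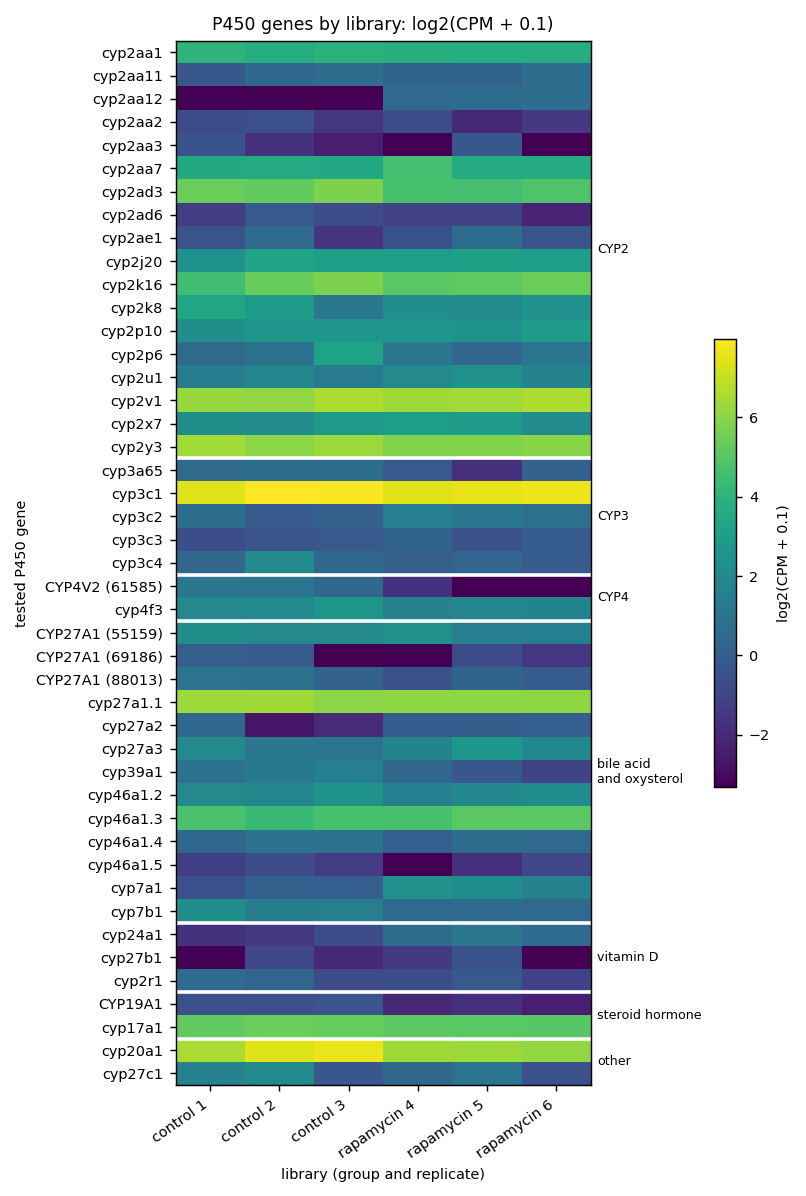
Level of the 45 tested P450 genes in each library. Rows are genes grouped by class (numbers after a symbol are the last digits of its Ensembl ID), columns are the 6 libraries, and colour is log2(CPM + 0.1). *cyp3c1* and *cyp20a1* are bright in every column, and *cyp2aa12* is at 0 in the 3 control columns only.

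edgeR's quasi-likelihood test, adjusted over all 19778 genes tested, called 3 P450 genes higher in the rapamycin fins and none lower at an adjusted p under 0.05. The genes were *cyp7a1*, *cyp24a1* and *cyp2aa12*. The share called higher was 6.67% of the 45 tested, against 1.97% of all tested genes, and for lower calls the share of all genes was 3.27%. At an unadjusted p under 0.05 there were 3 higher and 6 lower (13.3% of the 45), against 10.1% and 13.3% of all genes. DESeq2 called the same 3 higher (all genes 5.06%) and 4 lower (all genes 7.78%), namely *cyp20a1*, *cyp2ad3*, CYP4V2 and *cyp7b1*. limma-voom called *cyp2aa12* and *cyp7a1* higher and *cyp2ad3* and CYP4V2 lower, against 2.87% of all genes higher and 3.43% lower.

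Of the 45 genes 17 had a log2 fold change (rapamycin minus control) above 0 and 28 below 0. The median was -0.24, beside 0.0014 over all tested genes, of which 50.1% lay above 0. The median by class was -0.0025 for 18 tested CYP2 genes, -0.19 for 5 CYP3 genes and -0.25 for 13 bile acid and oxysterol genes. For 3 vitamin D genes it was 0.63, the value of *cyp27b1* (standard error 1.6), with *cyp24a1* at 2.35 and *cyp2r1* at -0.88. The remaining classes had 2 tested genes each. The groups did not overlap in 5 genes with rapamycin above (11.1% of the 45), against 14.8% of all tested genes. They did not overlap in 11 with rapamycin below (24.4%), against 15.9%.

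These counts changed when single libraries were left out. Such a fit also has fewer replicates, so a lost call cannot be credited to the library removed alone. Without control replicate 1, edgeR called 5 P450 genes higher and 5 lower, and 15.5% and 15.6% of all genes tested. The additional higher genes were *cyp27a2* and *cyp27a3*, and the lower ones were *cyp20a1*, *cyp2ad3*, *cyp39a1*, *cyp3c1* and CYP4V2. Both P450 shares were 11.1%, below those of all genes. Without control replicate 2 only *cyp2aa12* was called higher and none lower (all genes 0.232% and 0.335%). Without control replicate 3 the same 3 genes were higher and none lower (all genes 1.62% and 2.32%). Without rapamycin replicate 4 *cyp2aa12* was called higher and CYP4V2 lower (all genes 0.23% and 0.387%). Without replicate 5 no P450 gene was called (all genes 0.23% and 0.318%), and without replicate 6 only *cyp7a1* was, higher (all genes 0.288% and 0.318%).

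**Figure D2:**
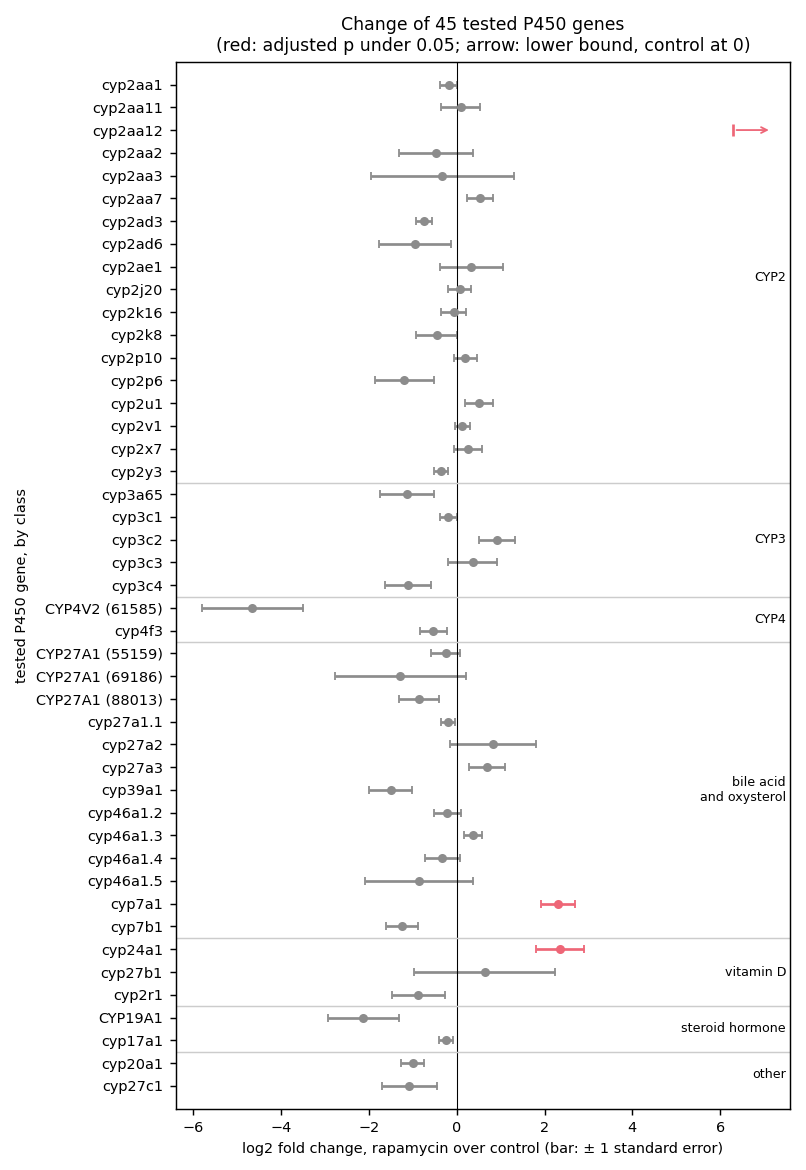
Log2 fold change (rapamycin over control) of the 45 tested P450 genes by class, with ± 1 standard error derived from the F statistic of the edgeR test. Red marks an adjusted p under 0.05. The arrow starts at the value of *cyp2aa12* against a floor of 3 counts over the control group, as it had no control count. The 3 red genes all lie to the right of 0, and 28 of the 45 genes lie to the left.

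*cyp7a1* rose in the rapamycin fins. It encodes the cholesterol hydroxylase that sets the rate of bile acid synthesis, best known from liver. *cyp7a1* (ENSDARG00000069018) had 0.586, 1.01 and 0.951 CPM in the control libraries and 5.18, 4.40 and 2.92 CPM in the rapamycin libraries. Every rapamycin library lay well above every control library, though the rapamycin libraries also spread widely. The means were 0.848 ± 0.229 and 4.17 ± 1.15 CPM (SD, n = 3). In edgeR the log2 fold change was 2.30 with a standard error (SE) of 0.39 (adjusted p = 0.0146). The adjusted p was 0.00394 without control replicate 1. It lost the threshold without control replicate 2 (0.0687), rapamycin replicate 4 (0.0871) or rapamycin replicate 5 (0.0801). RefSeq lists a second zebrafish gene, *cyp7a1b*, and reads shared with it cannot be told apart here.

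edgeR called no other gene of bile acid and oxysterol metabolism with all libraries. *cyp7b1*, which hydroxylates oxysterols and some steroids at the same ring position in mammals, had 4.84, 2.55 and 2.78 CPM in control and 1.37, 1.57 and 1.37 CPM in rapamycin libraries. The groups did not overlap, and control replicate 1 was the highest library. Its log2 fold change was -1.24 (SE 0.37, edgeR adjusted p = 0.0820, 0.0329 from DESeq2). In RefSeq *LOC141378657* and *LOC103908842* overlap *cyp7b1*, and the strand of counting is not given, so its reads may be mixed with theirs. *cyp39a1*, whose mammalian counterpart acts on an oxysterol made in the brain, had 1.76, 2.28 and 2.83 CPM against 1.28, 0.737 and 0.399 CPM. These groups did not overlap either, at a log2 fold change of -1.51 (SE 0.49, edgeR adjusted p = 0.108, and 0.0378 without control replicate 1). The fold changes of *cyp7a1* on one side and *cyp7b1* and *cyp39a1* on the other thus had opposite signs. With all libraries edgeR called only *cyp7a1* of the 3, and DESeq2 also called *cyp7b1*.

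The sterol side-chain hydroxylases gave 6 tested IDs, none called. *cyp27a1.1*, which took most of their reads, had 80.8, 83.8 and 65.4 CPM in control and 67.7, 67.6 and 66.1 CPM in rapamycin libraries, with a log2 fold change of -0.19 (SE 0.16, edgeR adjusted p = 0.515). *cyp27a2* had 1.30, 0.0570 and 0.158 CPM against 0.882, 0.921 and 0.930 CPM. Control replicate 1 alone thus held 80 of the 90 control counts of this gene, and the rapamycin libraries lay within a narrow range. Its log2 fold change was 0.83 (SE 0.97, edgeR adjusted p = 0.642) with all libraries and 3.06 (adjusted p = 0.0290) without control replicate 1. *cyp27a3* went from 0.70 (adjusted p = 0.343) to 1.14 (adjusted p = 0.0460) in the same way, with its highest control level, 4.22 CPM, in that library. The symbol CYP27A1 stands for 3 further IDs, so reads shared among these paralogs are uncertain. They gave log2 fold changes of -0.25, -0.86 and -1.29, the last from ENSDARG00000069186, which had no count in control replicate 3 and rapamycin replicate 4 (SE 1.49, edgeR adjusted p = 0.637).

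The CYP46A genes, named after the mammalian enzyme that clears cholesterol from the brain, lie in a run of 5 in the RefSeq gene order. *cyp46a1.3* took 8888 of the reads of this run. It had 26.8, 20.0 and 26.2 CPM in control and 26, 34.2 and 34.0 CPM in rapamycin libraries, and the groups overlapped (log2 fold change 0.37, SE 0.20, edgeR adjusted p = 0.312). *cyp46a1.2*, with 3.54 to 5.41 CPM in control and 2.89 to 4.42 CPM in rapamycin libraries, gave -0.21 (adjusted p = 0.714), and neither *cyp46a1.4* nor *cyp46a1.5* was called. *cyp46a1.1* had 21 and 18 counts in control replicates 1 and 2 and none elsewhere. CYP8B1, the sterol hydroxylase that fixes the type of bile acid made in mammals, stood for 3 IDs with at most 28 counts in a library, and none was tested.

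*cyp24a1*, which inactivates the vitamin D hormone, rose in the rapamycin fins. *cyp24a1* (ENSDARG00000103277) had 0.212, 0.266 and 0.543 CPM in control and 1.61, 2.14 and 1.44 CPM in rapamycin libraries, or 13, 14 and 24 counts against 86, 116 and 76. The lowest rapamycin library stood above the highest control library, control replicate 3. The means were 0.340 ± 0.178 and 1.73 ± 0.362 CPM (SD, n = 3). In edgeR the log2 fold change was 2.35 with a standard error of 0.55 (adjusted p = 0.0414, and 0.00372 with DESeq2 and 0.0523 with limma-voom). It was 0.0191 without control replicate 1. Without control replicate 2 it was 0.151, and without rapamycin replicates 4, 5 or 6 it was 0.145, 0.196 and 0.129.

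The enzymes that make the hormone were not called. *cyp27b1*, which forms the active hormone, had 0, 23 and 6 counts in control and 14, 34 and 0 in rapamycin libraries, with a log2 fold change of 0.64 (SE 1.6, edgeR adjusted p = 0.839). No difference was detectable for *cyp27b1*, whose libraries scattered widely within both groups (coefficient of variation 117% in control and 106% in rapamycin fins). *cyp2r1*, which carries out the step before it, had 1.45, 1.20 and 0.543 CPM against 0.563, 0.792 and 0.380 CPM (log2 fold change -0.88, SE 0.60, adjusted p = 0.413). *calca* overlaps *cyp2r1* in RefSeq, and the strand of counting is not given, so their reads may be mixed. The vitamin D receptor, through which the hormone is known to induce *cyp24a1*, stood for 3 IDs, looked up after the values of *cyp24a1* had been seen. Their log2 fold changes were 0.12, 0.081 and -0.22, with adjusted p from edgeR of 0.841, 0.878 and 0.624.

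**Figure D3:**
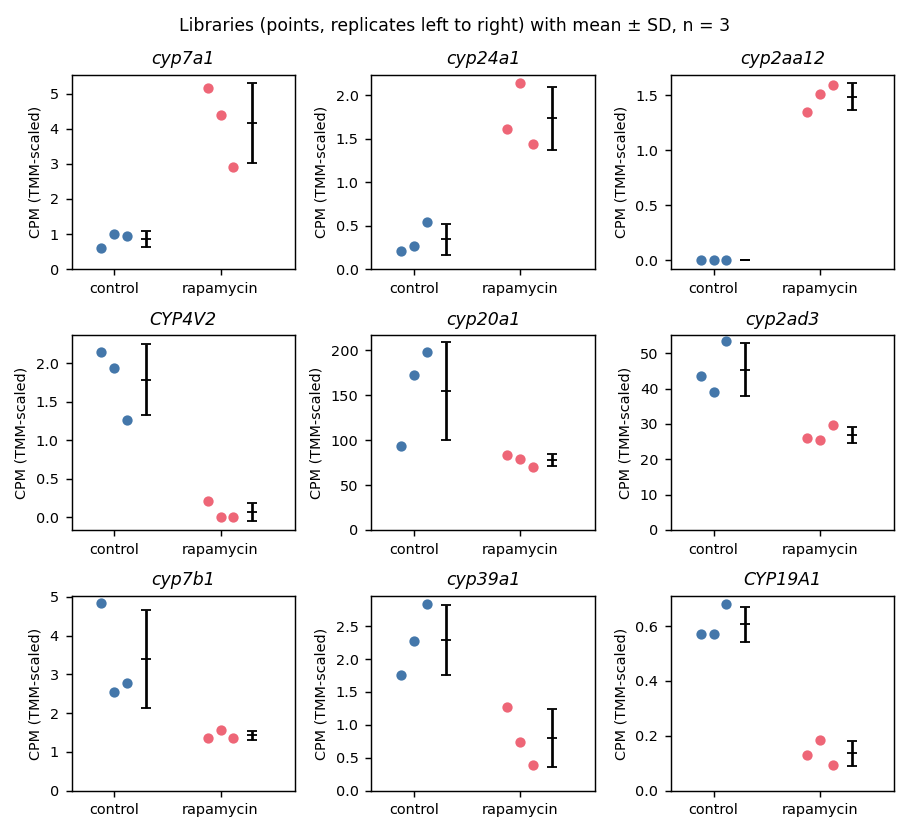
CPM of 9 P450 genes in the single libraries (points, left to right by replicate number) with mean ± SD (n = 3 per group). The top row shows the 3 genes called higher in rapamycin fins and the lower rows 6 genes whose rapamycin libraries all lie below the controls. Control replicate 1 is the lowest control for *cyp20a1* and *cyp39a1* and the highest for *cyp7b1* and CYP4V2.

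None of the steroid-making P450s was called, and 5 of the 7 IDs were not tested. *cyp17a1*, the hydroxylase and lyase on the way to sex steroids and cortisol, was the one read at length. It had 37.6, 44.0 and 39.5 CPM in control and 35.3, 33.8 and 33.3 CPM in rapamycin libraries, so the groups lay apart by a small distance (log2 fold change -0.24, SE 0.16, edgeR adjusted p = 0.403). CYP19A1, aromatase, had 35, 30 and 30 counts in control and 7, 10 and 5 in rapamycin libraries. The groups lay clearly apart, with 0.606 ± 0.0630 and 0.137 ± 0.0449 CPM (SD, n = 3) and a log2 fold change of -2.13, but a standard error of 0.80 and an adjusted p of 0.151 from edgeR (0.137 without control replicate 1). CYP19A1 could pass the count filter only through the control libraries. Zebrafish have an ovarian and a brain aromatase gene, and the symbol in capitals does not tell which ID this is.

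The other steroid-making P450s were almost unread. CYP11A1, the side-chain cleavage enzyme that starts steroid synthesis, stood for 2 IDs. One had 7 and 34 counts in rapamycin replicates 5 and 6 and none elsewhere, and the other 27 counts in control replicate 2 only. *cyp11c1* had counts in control replicate 1 and rapamycin replicate 6 only (23 and 9), *cyp17a2* had 13 counts in all, and *cyp21a2* none. Of 15 tested steroid hormone genes beside the P450s, 1 fell and none rose in edgeR (all genes 3.27% and 1.97%). Leaving out control replicate 1, 6 fell and none rose (all genes 15.6% and 15.5%), and without the other single libraries 0 or 1 fell. The gene that fell with all libraries was *hsd17b10*, a mitochondrial dehydrogenase, with a log2 fold change in edgeR of -1.20 (standard error 0.22 and adjusted p = 0.0207, at most 0.118 with a library left out).

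The largest negative fold change was that of CYP4V2 (ENSDARG00000061585), known in humans as a fatty acid hydroxylase whose loss causes a crystalline retinal dystrophy. It had 132, 102 and 56 counts in control and 11, 0 and 0 counts in rapamycin libraries, or 2.15, 1.94 and 1.27 CPM against 0.207, 0 and 0 CPM. Only rapamycin replicate 4 held any read of it, well below the lowest control. The log2 fold change was -4.65 (standard error 1.15), and the adjusted p of 0.0509 from edgeR fell just short of the threshold. It was 2.55e-04 from DESeq2, 0.0420 from limma-voom, 0.0324 without control replicate 1 and 0.0267 without rapamycin replicate 4. Without control replicates 2 or 3 it was 0.189 and 0.0645, and without rapamycin replicates 5 or 6 it was 0.146. The gene could pass the count filter only through the control libraries. A second ID of this name had no count, and reads shared between them are uncertain. *cyp4f3*, whose human counterpart inactivates leukotriene B4, had 3.84, 3.99 and 6.18 CPM against 2.91, 3.43 and 3.32 CPM (log2 fold change -0.54, SE 0.31, adjusted p = 0.327). *cyp4t8* had 36 counts over 3 libraries and was not tested. In RefSeq *LOC108191761* overlaps *cyp4f3* and *LOC141378144* overlaps *cyp4t8*, so reads within these pairs may be mixed.

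*cyp20a1* (ENSDARG00000006040) had 94.0, 173 and 199 CPM in control and 83.3, 78.9 and 70.3 CPM in rapamycin libraries. Control replicate 1 was much closer to the rapamycin libraries than to the other controls. The log2 fold change was -1.0 (SE 0.26, edgeR adjusted p = 0.0598, 0.00417 from DESeq2). Without control replicate 1 the gene fell by 1.27 on the log2 scale (adjusted p = 4.43e-04), and without any other single library the adjusted p was 0.123 to 0.219. *zp2l2*, which overlaps *cyp20a1* in RefSeq, was nearly unread, at most 0.493 CPM. *cyp27c1*, which makes the visual pigment chromophore precursor vitamin A2 in zebrafish, had 3.16, 3.97 and 0.747 CPM against 1.28, 1.86 and 0.588 CPM. The groups overlapped through control replicate 3 (log2 fold change -1.08, SE 0.63, adjusted p = 0.334).

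**Figure D4:**
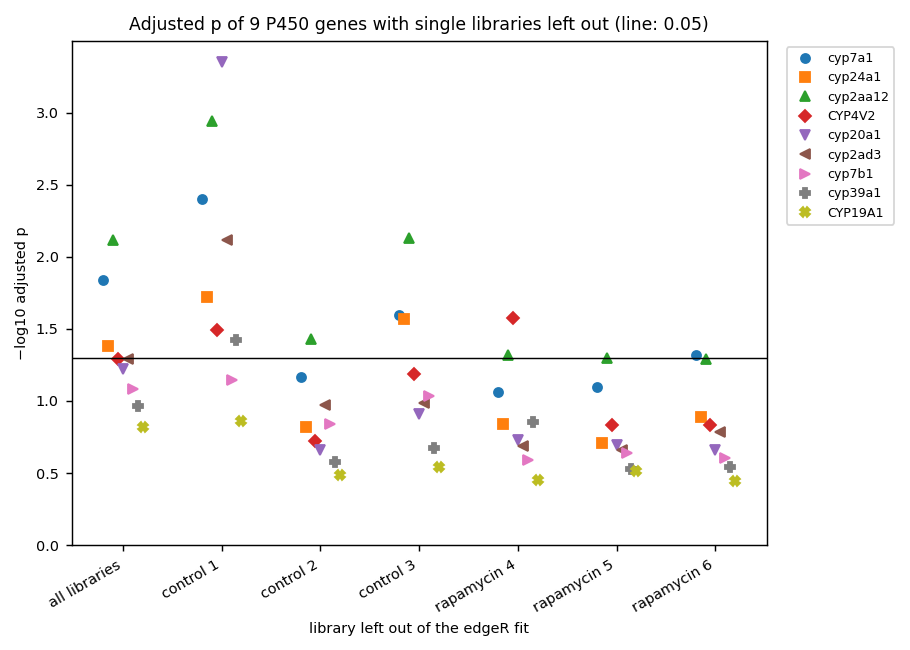
Minus log10 of the adjusted p from edgeR for 9 P450 genes, with all libraries and with each library left out (x axis, points offset sideways for clarity). The horizontal line is 0.05. Without control replicate 1, 7 of the 9 genes lie above the line, and without rapamycin replicate 5 none does.

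Of 39 CYP2 genes 18 were tested, 14 had no count in any library and 7 had counts but were not tested. The genes with no count included 6 of 10 CYP2K and 3 of 9 CYP2AA genes. In RefSeq order 8 CYP2K genes follow each other without another coding gene between them. All of them overlap *LOC141381148* in RefSeq. Reads shared with it or among these close relatives are uncertain, also for the genes with no count. Only the neighbours *cyp2k16* and *cyp2k8* were read at length, with 11987 and 1819 counts in all. *cyp2k17* had 21 counts and *cyp2k18* 8, in rapamycin libraries only, and the other 4 had none. *cyp2k16* had 23.1, 41.0 and 54.2 CPM in control and 33.6, 36.2 and 42.9 CPM in rapamycin libraries, so the rapamycin range lay inside the control range (log2 fold change -0.069, SE 0.29, adjusted p = 0.904). *cyp2k8* had 9.84, 7.07 and 2.22 CPM in the same control libraries, the reverse order, and 4.6, 4.15 and 5.22 CPM in rapamycin libraries.

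*cyp2aa12* was read in the rapamycin fins only. *cyp2aa12* (ENSDARG00000102805) had no count in any control library and 72, 82 and 84 counts in rapamycin replicates 4 to 6. That is 1.35, 1.51 and 1.59 CPM, or 1.49 ± 0.123 CPM (SD, n = 3), with a spread smaller than that of the other called genes. Set against a floor of 3 counts over the control group, its rapamycin mean was 78.3-fold higher (6.29 on the log2 scale). With counting error in both groups, the 95% interval of the ratio started at 63.2. edgeR's own log2 fold change was 9.30 (SE 1.07, adjusted p = 0.00758), a size that rests on control counts of 0. The adjusted p was 0.00115 without control replicate 1. It rose to 0.0501 and 0.0508 without rapamycin replicates 5 and 6, just past the threshold. The gene could pass the count filter only through the rapamycin libraries, and reads shared with its near relatives are uncertain.

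None of its neighbours was called. The CYP2AA genes and *cyp2ae1* form a run of 10 in RefSeq, and *cyp2aa12* is at its end. *cyp2aa7*, next to it with 1 coding gene between them, had 11.6, 12 and 11.2 CPM in control and 25.4, 12.4 and 12.3 CPM in rapamycin libraries. Rapamycin replicate 4 alone stood above the others, although the groups did not overlap (log2 fold change 0.52, SE 0.30, adjusted p = 0.326). *cyp2aa11* gave 0.089 and *cyp2aa1* -0.18, with adjusted p of 0.923 and 0.615, and *cyp2aa4*, *cyp2aa8* and *cyp2aa9* had no count. In RefSeq *cyp2aa12*, *cyp2aa7*, *cyp2aa11* and *cyp2aa4* all overlap *tut4*, which encodes an enzyme that adds uridines to RNA. *tut4* had 4.01, 1.46 and 2.47 CPM in control and 4.47, 4.0 and 3.07 CPM in rapamycin libraries (log2 fold change 0.54, SE 0.40, adjusted p = 0.453). Without the strand, reads of overlapping genes cannot be told apart, and the part of *tut4* in the *cyp2aa12* counts was not tested.

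Another run holds 11 genes of the CYP2N, CYP2AD, CYP2V, CYP2P and CYP2J subfamilies. *cyp2ad3*, described after its values had been seen, had 43.5, 39.0 and 53.6 CPM in control and 25.9, 25.4 and 29.6 CPM in rapamycin libraries, and the groups were well apart. Its log2 fold change was -0.75 (standard error 0.19), with an adjusted p of 0.0509 from edgeR, 0.00554 from DESeq2, 0.0444 from limma-voom and 0.00759 without control replicate 1, but 0.103 to 0.220 without any other single library. *cyp2v1*, which overlaps *cyp2ad3* in RefSeq, had 76.4, 71.8 and 95.7 CPM against 83.9, 85.7 and 96.5 CPM (log2 fold change 0.13, SE 0.17, adjusted p = 0.697). These overlapping neighbours thus gave values of opposite sign, and reads that both could claim are uncertain. *cyp2p6* reached 9.26 CPM in control replicate 3 and lay at 1.22 to 2.14 CPM in the other 5 libraries. *cyp2p7* had 52 and 62 counts in control replicates 1 and 2, 4 in control replicate 3 and 2 to 7 in rapamycin libraries. *cyp2ad2*, *cyp2p8* and *cyp2p9* had none. *cyp2p10* and *cyp2j20*, the latter of the subfamily that makes epoxides of arachidonic acid in mammals, gave 0.19 and 0.064 with overlapping groups. They overlap each other in RefSeq, and *cyp2p6* and *cyp2ad2* overlap *cyp2v1*, so reads shared within these pairs are uncertain too.

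Of the CYP2 genes outside these runs, *cyp2y3* had 85.7, 65.0 and 77.7 CPM in control and 57.5, 57.8 and 63.2 CPM in rapamycin libraries. The highest rapamycin library stood just below the lowest control library (log2 fold change -0.36, SE 0.17, adjusted p = 0.238). *cyp2u1*, a fatty acid hydroxylase in mammals, gave 0.51 (adjusted p = 0.373). It overlaps *gstcd* in RefSeq, so their reads may be mixed. Of 6 CYP2X genes only *cyp2x7* was tested, at 0.26 (adjusted p = 0.668). *cyp2x6*, *cyp2x8* and *cyp2x9* had 8 to 16 counts in all, none of them in a rapamycin library. The tested CYP2 genes not described singly, *cyp2aa2*, *cyp2aa3*, *cyp2ad6* and *cyp2ae1*, gave log2 fold changes from -0.95 to 0.33, all with overlapping groups and none called.

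**Figure D5:**
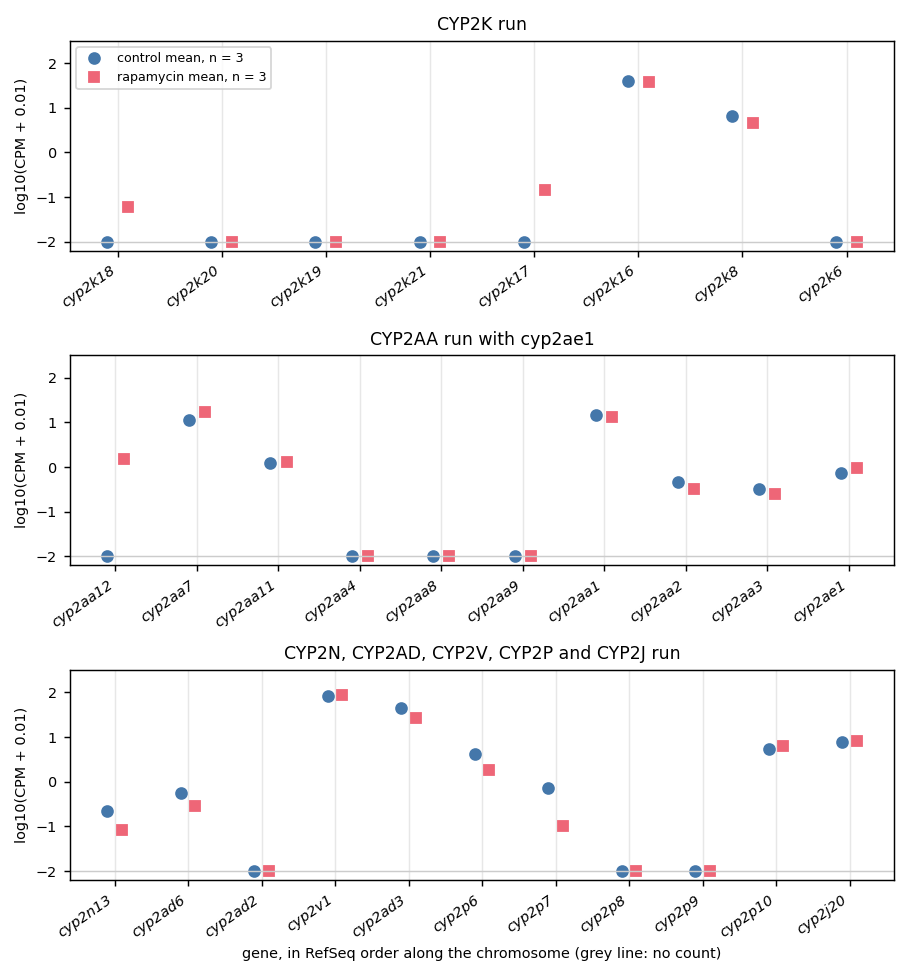
Mean level of CYP2 genes (n = 3 libraries per group) in 3 runs of neighbours, in RefSeq order from left to right. The y axis is log10(CPM + 0.01), and points on the grey line at -2 had no count. *cyp2aa12* is the only gene of its run on the line in control and above it in rapamycin fins, and 6 of the 8 CYP2K genes lie on it in control.

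All 5 CYP3 genes were tested and none was called. *cyp3c1* had 175, 253 and 240 CPM in control and 178, 197 and 211 CPM in rapamycin libraries. Control replicate 1 lay below all rapamycin libraries, so the groups overlapped, and the log2 fold change was -0.19 (SE 0.19, edgeR adjusted p = 0.579). Without control replicate 1 *cyp3c1* fell by 0.35 on the log2 scale (adjusted p = 0.0469). The 4 CYP3C genes lie side by side, and the 3 others took few reads, 244 to 536 counts each against 65878. *cyp3c2* had 1.61, 0.855 and 0.996 CPM against 2.72, 2.06 and 1.73 CPM, higher in every rapamycin library (log2 fold change 0.91, SE 0.41, adjusted p = 0.220). In RefSeq *LOC141381256* overlaps *cyp3c2*, so their reads may be mixed. *cyp3c3*, between 0.554 and 1.13 CPM in all libraries, gave 0.36 (adjusted p = 0.728). *cyp3c4* had 1.22, 3.97 and 1.29 CPM against 0.976, 1.18 and 0.835 CPM (log2 fold change -1.11, SE 0.53, adjusted p = 0.241). *cyp3a65*, the zebrafish gene of the subfamily that clears many drugs in humans, had 1.40, 1.62 and 1.49 CPM against 0.789, 0.184 and 1.08 CPM (log2 fold change -1.13, SE 0.62, adjusted p = 0.306).

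The control libraries differed more from each other than the rapamycin libraries did. Of 32 tested P450 genes with a mean of at least 1 CPM, 22 had the larger coefficient of variation in control, with medians of 25.2% in control and 18.7% in rapamycin fins. Over all 16192 such genes the medians were 25.5% and 11.9%. Of the 45 tested P450 genes at any level, 26 had the larger value in control, with medians of 27.5% and 23.3%. Each library was the highest of its group for 13 to 17 of the 45 genes, so no single library led the whole family.

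edgeR called none of 13 tested electron donors and partners with all libraries, 3 with a fold change above 0 and 10 below (median -0.29). It called 7 of them lower without control replicate 1, namely 1 POR ID, *cyb5a*, *cyb5r1*, *cyb5r3*, *fdx1*, *fdx2* and *pgrmc1*, and none higher, where 15.6% of all genes were lower. Without any other single library it called none. POR stood for 2 IDs. The one with more reads had 111, 167 and 181 CPM in control and 129, 125 and 129 CPM in rapamycin libraries (log2 fold change -0.26, SE 0.20, adjusted p = 0.474, and 0.0121 without control replicate 1). The other gave 0.15 (adjusted p = 0.828). The mitochondrial ferredoxin reductase *fdxr* had 2.31, 1.84 and 2.20 CPM against 1.37, 0.866 and 1.33 CPM (log2 fold change -0.83, SE 0.38, adjusted p = 0.219). The second ferredoxin gene *fdx1b* had no count. Of 10 tested genes of heme synthesis and breakdown none was called by edgeR with all libraries (median -0.00040), and 1 was higher (*blvra*) and 3 lower (*alad*, *blvrb* and *urod*) without control replicate 1. Of 13 nuclear receptors and other factors known to act on P450 genes none was called with all libraries (median 0.18), and 2 were higher (*nr1h3* and *pparg*) and 1 lower (*rxrga*) without control replicate 1. Over all genes, 1.97% were called higher and 3.27% lower with all libraries, and 15.5% and 15.6% without control replicate 1. No gene of the heme or the nuclear receptor list was called without any other single library.

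Of the P450s that the selection left out, with the P450 genes *ptgis* and *tbxas1* of prostanoid synthesis, 2 of 10 rose and none fell in edgeR (all genes 1.97% and 3.27%). *ptgis* rose as well without control replicate 1 (all genes 15.5%), and without any other single library CYP1A1 alone did. CYP1A1, known for its induction by aryl hydrocarbons, had 53.1, 65.5 and 53.7 CPM in control and 136, 179 and 203 CPM in rapamycin libraries (log2 fold change 1.59, SE 0.20, adjusted p = 0.00560, at most 0.0416 with a library left out). *cyp26c1*, which breaks down retinoic acid, had 25.2, 24.0 and 18.7 CPM against 37.6, 43.0 and 45.3 CPM (log2 fold change 0.89, SE 0.19, adjusted p = 0.0309, at most 0.157 with a library left out).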

How the data were processed

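The authors extracted total RNA with Trizol, made cDNA with SMARTScribe reverse transcriptase, fragmented it with dsDNA fragmentase and sequenced PCR-amplified libraries in paired ends. The deposited values are whole-number counts per Ensembl zebrafish gene ID, with no normalization, and all 6 columns were used (0 columns left out). For the aligner, the counter and its use of strand, the sources used here give nothing. The submitters' processing notes name the build mm10, although every ID is a zebrafish ID. A names table gave symbols for 28988 of 32057 IDs. Of the 77 P450 genes, 64 matched a RefSeq zebrafish symbol that stands for 1 ID, which was used for gene order and overlap only (GRCz12tu, not known to be the authors' build), so no coordinates are given. Promoter and protein sequences are not used here.

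The tests ran in R 4.3.3. The main one was that of edgeR 4.0.16 (filterByExpr, TMM, robust quasi-likelihood test, Benjamini-Hochberg over all genes tested), and DESeq2 1.42.0 and limma 3.58.1 served as alternatives. The threshold was an adjusted p of 0.05. Standard errors (SE) were derived as the absolute log2 fold change divided by the square root of the F statistic of the edgeR test. They restate that test, and where a group has counts of 0 they do not measure the precision of the fold change. The fit was also run on counts simulated with known fold changes, as a check of the code only. Those counts held no outlying library such as control replicate 1, so the run does not cover that feature of these data. The study states that each group had 3 biological replicates. Whether each pool came from a separate clutch is not stated, so p-values measure the spread between these pools only. Reads carry no molecular identifiers, so floors (3 counts) and count limits cover counting error only.

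The genes named by rule were those called, the 3 highest per class by mean CPM, the 5 highest and 5 lowest log2 fold changes and all tested steroid hormone and vitamin D genes, plus called genes of the other lists, POR and *fdxr*. Other P450 genes are named to account for the family. The P450 genes, the lists and the tests were chosen with earlier results of these data known. Alternatives were 3 other scalings, no count filter, a minimum of 10 counts in each of the 6 libraries, a threshold on the unadjusted p, an added absolute log2 fold change of at least 1, and each library left out in turn, which for the lists beside the P450 genes was added after seeing the data.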

Additional observations from a re-analysis of the deposited data

How the results depend on the processing

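The number of P450 genes called higher stayed at 2 or 3 under every other scaling, filter, test and threshold tried. The number called lower, 0 in the edgeR test, was 2 with DESeq2 size factors, upper quartile scaling, library size only, no count filter, at least 10 counts in every library and limma-voom, 4 with DESeq2 and 6 at an unadjusted p. Over all genes 390 were called higher and 647 lower, against 1000 and 1539 with DESeq2 and 1989 and 2633 at an unadjusted p. In the settings with 2 lower P450 genes, 284 to 568 of all genes were higher and 679 to 801 lower. Those settings tested 17254 to 25280 genes, 35 to 61 of them P450 genes. With 1 library left out, 0 to 5 P450 genes were called higher and 0 to 5 lower, and 47 to 3128 and 65 to 3151 of all genes. The highest numbers came without control replicate 1. The median log2 fold change of the tested P450 genes was -0.24, ranged from -0.35 to -0.27 with a library left out, and was -0.35 with no count filter, which tested 61 P450 genes. No scaling moved the median of all genes by over 0.1 or changed the 17 to 28 split of the P450 genes. The causes of these shifts were not tested.

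Of 210 results for single named genes under another scaling, filter, test or threshold, 193 kept their direction and side of the threshold, and 126 of 144 with a library left out did. The threshold settings among the 210 reused the fold changes of the main fit, so the direction could not change in them. The direction changed for *cyp2k16*, whose log2 fold change of -0.069 became 0.022 with limma-voom, 0.23 without control replicate 3 and 0.0013 without rapamycin replicate 4, and for *cyp27b1*, at -0.53 without rapamycin replicate 5 (up to 2.15 without control replicate 2). The 3 genes called higher had at most 53 counts in a control library, so depth limits their control levels. With at least 10 counts in every library *cyp2aa12*, CYP4V2 and CYP19A1 were among those not tested. No paired analysis was possible because the control libraries carry numbers 1 to 3 and the rapamycin libraries 4 to 6, and nothing else in the labels pairs them.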

Other observations

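Enzymes that oxidise or conjugate the same kinds of substrates were read beside the P450s. Of 67 IDs of UDP-glucuronosyltransferases, sulfotransferases, flavin monooxygenases, epoxide hydrolases, aldehyde oxidases, carboxylesterases and N-acetyltransferases (chosen by symbol, which also takes in *nat* genes of other functions), 46 were tested. edgeR called 4 lower and none higher, against 3.27% and 1.97% of all tested genes, with a median log2 fold change of -0.30. Without control replicate 1 it called 3 higher (*ces2b*, *ephx2* and *nat10*) and 12 lower, against 15.5% and 15.6% of all genes, and without any other single library none higher and 0 to 2 lower. The glucuronosyltransferase genes *ugt2a5* and *ugt2a7*, whose products attach a sugar acid to small molecules, were 2 of them. *ugt2a5* had 34.3, 35.5 and 24.7 CPM in control and 11.3, 13.2 and 10.4 CPM in rapamycin libraries (log2 fold change -1.44, SE 0.21, adjusted p = 0.00956). *ugt2a7* had 10.1, 11.9 and 10.8 CPM against 3.74, 4.09 and 4.17 CPM (log2 fold change -1.45, SE 0.23, adjusted p = 0.0114). In both genes the groups lay far apart, and the adjusted p was at most 0.0711 and 0.0796 with a library left out. *ugt2b1* (-3.99, SE 0.88, adjusted p = 0.0354) and the sulfotransferase gene *sult1st1* (-0.82, SE 0.20, adjusted p = 0.0457) were the others, at most 0.139 and 0.202 with a library left out. *ugt2b1* had 1.03 to 1.63 CPM in control and 0.0184 to 0.188 CPM in rapamycin libraries. It could pass the count filter only through the control libraries. Reads shared among the close relatives of these families are uncertain.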
